A study of Mus musculus with 8 samples.

Results

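The genes Hmox1, Slc40a1, Hamp, Fth1, Tfrc, Trf, Cp, Hpx, Mt1 and Mt2 handle iron, heme and metals, and they are 10 of the 52459 genes listed in the bulk count table and 10 of the 31053 in each single-cell matrix. They were chosen by symbol, to set the contribution of liver parenchyma beside iron handling by macrophages. The tumors grew from FC1242 cells, a KPC mouse pancreatic cancer line, with 100000 cells placed in the liver (the metastatic site) or in the pancreas (the primary site) of C57BL/6 mice and tumors taken after 3 weeks. Total RNA was sequenced in bulk from 3 liver tumors and 3 primary tumors, and droplet-based single-cell RNA sequencing was run on sorted CD45+ cells (leukocytes), with 1 library from liver tumors and 1 from primary tumors. Every mouse carried the same transplanted line, no treatment is labelled, and the liver tumors were seeded by injection. The sex and age of the mice and any pairing of samples are not given in the sources used here.

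Iron circulates bound to transferrin (Trf), enters cells through the transferrin receptor (Tfrc) and is stored in ferritin, whose heavy chain is Fth1. Macrophages take up ageing red cells, open heme with heme oxygenase (Hmox1) and return the iron to plasma through the exporter ferroportin (Slc40a1), where the copper oxidase ceruloplasmin (Cp) oxidises it for loading onto transferrin. Hepatocytes make hepcidin (Hamp), the hormone that removes ferroportin from the cell surface, and hemopexin (Hpx), the plasma heme binder. Metallothioneins (Mt1, Mt2) bind zinc and other metals and are induced by zinc, glucocorticoids and inflammation. In the liver, resident macrophages called Kupffer cells clear red cells and heme next to the hepatocytes that make most plasma iron carriers.

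Ferritin, ferroportin and the transferrin receptor are under the control of iron-responsive elements, RNA hairpins that iron regulatory proteins bind when iron is low. In a 5′ UTR they block translation, which read counts do not measure, and in the 3′ UTR of Tfrc they protect the message from decay, which read counts can show. The elements are printed to show which of the genes carry which kind. Transcripts of the GENCODE vM21 annotation (GRCm38) were searched on the transcribed strand for a C, any 5 bases and the loop CAGTGN, and for the 5 base pairs of the upper stem. Each site is given as 27 bases, 5′ to 3′ in DNA letters, within an exon of the UTR named, with the 6-base loop in capitals.
Fth1, 5′ UTR, chr19:9982733-9982759, plus strand: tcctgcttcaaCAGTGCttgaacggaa
Ftl1 (ferritin light chain), 5′ UTR, chr7:45459780-45459806, minus strand: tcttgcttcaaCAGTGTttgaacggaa
Slc40a1, 5′ UTR, chr1:45925466-45925492, minus strand: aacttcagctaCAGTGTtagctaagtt
Tfrc, 3′ UTR, site 1, chr16:32631220-32631246, plus strand: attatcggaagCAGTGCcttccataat
Tfrc, 3′ UTR, site 2, chr16:32631599-32631625, plus strand: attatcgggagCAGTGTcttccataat
Tfrc, 3′ UTR, site 4, chr16:32631664-32631690, plus strand: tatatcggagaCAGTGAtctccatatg
Tfrc, 3′ UTR, site 5, chr16:32631711-32631737, plus strand: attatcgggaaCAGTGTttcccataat
All 5 stem pairs formed in each of these sites, while site 3 in the Tfrc 3′ UTR formed 2 of 5 and is not printed. Loop letters alone were common, in 7.33% of 19764 annotated 5′ UTRs and 30.7% of 19924 3′ UTRs. Loops with all 5 pairs stood in 0.106% of 5′ UTRs and 0.522% of 3′ UTRs.

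The metallothionein genes and Hamp have well-known response elements in their promoters, so those windows were searched for the same letters. RefSeq promoter windows (GRCm38.p6) were found for 7 of the 10 genes. The searched letters were the metal response element cores TGCGCNC and TGCACNC, the antioxidant response element TGAC, any 3 bases, then GC, and the BMP response element GGCGCC, each on both strands. The printed windows run from 250 bases before to 30 after the start that each RefSeq window uses. For Mt1 that start lies inside the gene span given further below (from chr8:94178883), so most of its window lies within the gene. Metal response element cores are in capitals for Mt1 and Mt2 and the BMP response element is in capitals for Hamp.
Mt1, chr8:94178839-94179118, plus strand: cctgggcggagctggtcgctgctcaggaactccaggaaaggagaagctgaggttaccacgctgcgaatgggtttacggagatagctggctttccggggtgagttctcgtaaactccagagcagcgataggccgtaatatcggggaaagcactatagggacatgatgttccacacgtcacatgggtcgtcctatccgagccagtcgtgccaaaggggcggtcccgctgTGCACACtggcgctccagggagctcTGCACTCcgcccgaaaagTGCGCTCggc
Mt2, chr8:94172368-94172647, plus strand: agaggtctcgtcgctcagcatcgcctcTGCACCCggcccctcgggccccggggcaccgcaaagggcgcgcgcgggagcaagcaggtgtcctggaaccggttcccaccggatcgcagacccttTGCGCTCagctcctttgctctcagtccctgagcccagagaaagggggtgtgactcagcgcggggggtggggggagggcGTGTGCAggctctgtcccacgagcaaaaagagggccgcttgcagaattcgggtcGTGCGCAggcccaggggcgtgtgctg
Hamp, chr7:30944000-30944279, minus strand: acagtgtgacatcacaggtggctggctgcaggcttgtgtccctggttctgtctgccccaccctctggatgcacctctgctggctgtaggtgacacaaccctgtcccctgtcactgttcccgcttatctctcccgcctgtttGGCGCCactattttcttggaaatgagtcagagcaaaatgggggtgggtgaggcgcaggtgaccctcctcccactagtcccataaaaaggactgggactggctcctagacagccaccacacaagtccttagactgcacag
Mt1 held 3 metal response element cores, a number reached by 1.97% of 32851 RefSeq windows. Mt2 held 4, a number reached by 0.517% of windows, and also 1 antioxidant response element, which 12.4% of windows hold. Counted from the start that each window uses, the Mt1 cores began at bases -23, 3 and 21. Those of Mt2 began at -223, -128, -50 and 5, where positive positions lie after the start. Hamp held 1 BMP response element, found in 11.9% of windows. The searched letters were not limited to these genes. The first Tfrc window also held 1 BMP response element, with 2 overlapping metal response element cores, a number reached by 7.11% of windows. The Hpx window held 1 antioxidant response element. Mt1 and Mt2 are neighbours on chromosome 8 in the same direction, with 5315 bases between the end of Mt2 and the start of Mt1. These matches are letters in a window and say nothing of binding.

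Bulk libraries held 27481400 to 36743200 reads each. Markers of hepatocytes took 12.7%, 12.2% and 7.88% of all reads in liver tumors 1, 2 and 3, against 0.00782%, 0.0504% and 0.0125% in primary tumors 1, 2 and 3, and 22 of 22 hepatocyte markers were higher in liver tumors. Kupffer cell markers took 0.0459%, 0.0384% and 0.0307% in liver tumors, against 0.000613%, 0.00151% and 0.000290% in primary tumors, and 8 of 8 were higher. Of 16 general monocyte and macrophage markers 10 were higher, and of 6 tested erythroid markers 1 was higher. Over all tested genes 16.7% were called higher in liver tumors. In bulk tissue, fewer cells of a type and less RNA per cell cannot be told apart, and the part these cell types have in each difference below was not tested. The labels do not say that the 3 samples of a site came from separate mice, so p-values measure the spread between these samples, which may be technical.

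In bulk, 5 of the 10 genes were higher in liver tumors and 0 were lower. The higher genes were hepcidin, hemopexin, transferrin, ferroportin and ceruloplasmin, and their libraries did not overlap between the sites. Heme oxygenase, ferritin heavy chain, the transferrin receptor and both metallothioneins did not pass the test and overlapped. Counts were tested with edgeR's quasi-likelihood test, with Benjamini-Hochberg adjustment over 16487 genes at 0.05. Over all these genes 16.7% (2755) were called higher in liver tumors, 6.26% (1032) lower and 23.0% either way, and 44.1% had groups that did not overlap. Without liver tumor 2 the genes called higher numbered 1810 and those lower 134, and those lower numbered 414 without liver tumor 1 and 606 without primary tumor 3. All 10 genes passed the filter on low counts. At an unadjusted p under 0.05 the number lower was also 0, and DESeq2 called 0 lower.

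Hemopexin (Hpx, chr7:105591611-105600116, minus strand, 10 exons) was the most abundant of the 10 in liver tumors per transcript length. Its level was 10894, 11321 and 7365 CPM (counts scaled to library size with TMM factors) in liver tumors 1, 2 and 3, against 24.9, 104 and 59.2 CPM in primary tumors 1, 2 and 3. Every liver tumor was far above every primary tumor, with a log2 change of 7.29 (SE 0.67, edgeR adjusted p = 0.000134). Albumin (Alb), the main hepatocyte plasma protein, stood at 54324, 56270 and 26835 CPM in liver tumors, against 4.67, 16.7 and 8.16 CPM in primary tumors. Both genes were lowest in the third tumor among the liver samples and highest in the second tumor among the primary samples.

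Hepcidin (Hamp, chr7:30942368-30944029, minus strand, 3 exons) had 660, 305 and 193 CPM in liver tumors, against 0.123, 0 and 0.0497 CPM in primary tumors. These levels rest on 14996, 8925 and 6484 reads in liver tumors and on 5, 0 and 2 reads in primary tumors. The hormone was thus close to the detection limit at the primary site and varied more than 3-fold among liver tumors. The fitted log2 change was 12.50 (SE 0.83, edgeR adjusted p = 2.41e-05). The neighbouring near copy Hamp2 had 392 reads over the liver libraries and 0 over the primary libraries, so reads of the pair can have been split by the counting and the Hamp value is uncertain by that share.

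Transferrin (Trf, chr9:103208876-103230286, minus strand, 17 exons) was measured at 2930, 940 and 751 CPM in liver tumors, against 66.7, 44.9 and 205 CPM in primary tumors. The groups did not overlap, although the first liver tumor was more than 3 times either of the other liver tumors and the third primary tumor was the highest of its group. The log2 change was 3.87 (SE 0.76, edgeR adjusted p = 0.00869). With no filter on low counts the adjusted p was 0.0728.

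Ceruloplasmin (Cp, chr3:19956933-20009750, plus strand, 19 exons) had 1638, 2506 and 1725 CPM in liver tumors, against 922, 626 and 1024 CPM in primary tumors. This was the smallest of the 5 called changes, at log2 1.19 (SE 0.31, edgeR adjusted p = 0.0275), and no primary tumor was below 626 CPM. The call was lost when any of 4 libraries was left out: the adjusted p was 0.0568 without liver tumor 1, 0.115 without liver tumor 2, 0.0642 without primary tumor 1 and 0.0557 without primary tumor 3.

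Set against the reads of the 22 hepatocyte markers, the 4 plasma proteins differed in how steady they were among liver tumors. Per 1000 hepatocyte-marker reads, Hpx had 68.4, 74.0 and 91.3 reads in liver tumors 1, 2 and 3. On the same scale Hamp had 4.14, 1.99 and 2.39 and Trf had 18.4, 6.14 and 9.30, both highest in the first tumor. Cp had 10.3, 16.4 and 21.4 on this scale and was highest in the third. Slc40a1 had 1.10, 1.47 and 1.51.

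**Figure D1:**
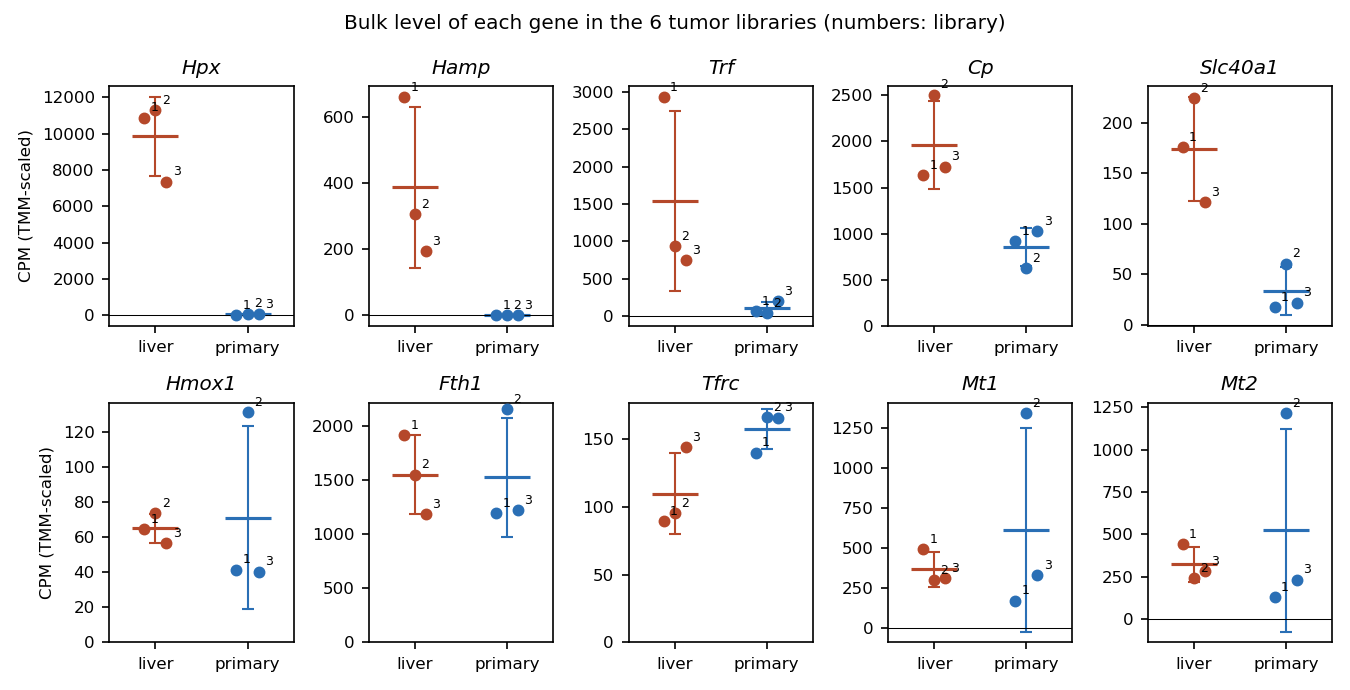
Levels of the 10 genes in CPM for the 3 liver tumors and the 3 primary tumors, each gene in its own panel with its own linear axis. Points are libraries, lines are means and bars are SD. Hamp, Hpx and Trf have the largest log2 changes between the sites, Slc40a1 and Cp are apart without overlap, and the second primary tumor has the highest Hmox1, Mt1 and Mt2.

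Ferroportin (Slc40a1, chr1:45908070-45926532, minus strand, 8 exons), the only known cellular iron exporter, had 176, 224 and 122 CPM in liver tumors, against 17.9, 60.8 and 22.2 CPM in primary tumors. The means were 174 ± 51.4 CPM in liver tumors and 33.6 ± 23.6 CPM in primary tumors (SD, n = 3 each). Its log2 change was 2.37 (SE 0.48, edgeR adjusted p = 0.0100), and the lowest liver tumor was above the highest primary tumor.

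Heme oxygenase (Hmox1, chr8:75093618-75100593, plus strand, 5 exons), which opens heme to biliverdin, iron and carbon monoxide, had 64.4, 73.7 and 56.8 CPM in liver tumors, against 41.5, 131 and 40.4 CPM in primary tumors. The second primary tumor was above every liver tumor, and the other primary tumors were below every liver tumor. The log2 change was -0.13 (SE 0.44, edgeR adjusted p = 0.863). Without primary tumor 2 it was 0.67 with an adjusted p of 0.0249, and the sign also turned in other fits that kept that library, at 0.10 to 0.12. The same library was the highest of its group for Slc40a1 and for the hemoglobin scavenger receptor Cd163, which had 20.5, 26.5 and 15.7 CPM in liver tumors, against 0.713, 3.67 and 0.124 CPM in primary tumors.

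Ferritin heavy chain (Fth1, chr19:9980600-9985111, plus strand, 4 exons) had 1918, 1554 and 1187 CPM in liver tumors, against 1199, 2162 and 1224 CPM in primary tumors. The ranges overlapped almost fully and the log2 change was 0.02 (SE 0.34, edgeR adjusted p = 0.971). Ferritin has many processed pseudogenes, so the split of its reads among copies is uncertain. The transferrin receptor (Tfrc, chr16:32608896-32632794, plus strand, 19 exons) had 89.3, 95.4 and 144 CPM in liver tumors, against 140, 166 and 166 CPM in primary tumors. The third liver tumor lay above the lowest primary tumor, and the log2 change of -0.52 (SE 0.23, edgeR adjusted p = 0.143) did not pass. Without liver tumor 3 it was -0.78 with an adjusted p of 0.0359.

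Mt1 (chr8:94178883-94180327, plus strand, 3 exons) had 494, 297 and 310 CPM in liver tumors, against 170, 1338 and 328 CPM in primary tumors. Mt2 (chr8:94172618-94173567, plus strand, 3 exons) had 441, 242 and 284 CPM in liver tumors, against 128, 1215 and 234 CPM in primary tumors. The neighbouring pair moved together over the 6 libraries: both were highest in primary tumor 2, second in liver tumor 1 and lowest in primary tumor 1. The log2 changes were -0.74 for Mt1 (SE 0.68, edgeR adjusted p = 0.467) and -0.71 for Mt2 (SE 0.74, edgeR adjusted p = 0.531). Without primary tumor 2 they turned to 0.56 and 0.83, and neither passed.

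Levels of different genes can be compared only per transcript length, for which the deposited FPKM values were used. Mean FPKM in liver tumors ran from Hpx at 6619 through Fth1 at 1802, Hamp at 945, Mt2 at 549, Trf at 465, Mt1 at 295, Cp at 206, Hmox1 at 37.3 and Slc40a1 at 19.5 down to Tfrc at 17.7. In primary tumors mean FPKM ran from Fth1 at 1753 through Mt2 at 891, Mt1 at 489, Cp at 88.7, Hpx at 41.6, Hmox1 at 40.4, Trf at 31.3 and Tfrc at 25.2 to Slc40a1 at 3.72 and Hamp at 0.14. The 10 genes together took 1.54%, 1.40% and 1.19% of reads in liver tumors, against 0.341%, 0.614% and 0.400% in primary tumors.

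The wider pathway was described with 6 lists by role, of which 79 genes were tested. Of these 34 were higher in liver tumors and 1 was lower, with a median log2 change of 0.61, beside 16.7%, 6.26% and a median of -0.07 over all tested genes. Without liver tumor 2 the number higher was 21. In heme synthesis and export, 10 of 12 genes were higher (median 1.22). They included the first enzyme of hepatic heme synthesis Alas1 (log2 2.95), Alad (2.16), Cpox (3.02) and the heme and porphyrin exporter Abcg2 (3.45). In iron uptake and transport, 8 of 17 were higher and 0 lower (median 0.95). These included the metalloreductase Steap4 (log2 4.48), the hepatocyte iron sensor Tfr2 (2.56), the metal importers Slc39a8 (3.03) and Slc39a14 (1.81), and the phagosomal metal transporter Slc11a1 (1.58), also known as Nramp1.

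Of 22 genes in the list on hepcidin control, 8 were higher and 1 was lower (median 0.05). The 8 include Hamp2, which is a copy of hepcidin and no regulator of it. Hemojuvelin, the BMP co-receptor that the table lists as Hfe2, was higher by log2 10.87, the protease Tmprss6 that cleaves it by 9.99, the BMP ligand Bmp2 by 1.75 and the hemochromatosis gene Hfe by 1.76. The transducer Smad1 was lower by log2 -0.64 (edgeR adjusted p = 0.0443), and that call was lost in 8 of 15 alternative settings. In heme and hemoglobin clearance, 6 of 10 were higher (median 1.02), among them the hemoglobin binder haptoglobin (Hp, log2 8.07), Cd163 (3.83), the transcription factor of red pulp and iron-recycling macrophages Spic (2.97), the hemopexin receptor Lrp1 (1.64) and Hmox2 (0.82). The call was lost in 4 of 15 alternative settings for Hmox2 and in 3 for Cd163, in both cases also without liver tumor 1 and without liver tumor 2, and in 7 for the heme-sensing repressor Bach1, also counted here. In storage and sensing 1 of 10 passed, Aco1 (iron regulatory protein 1, log2 1.86, median of the list -0.17), and ferritin light chain Ftl1 did not (log2 0.57, edgeR adjusted p = 0.247). Among other metallothionein and zinc genes 1 of 8 passed, the manganese exporter Slc30a10 (log2 8.71, median of the list 0.26), and the metal-sensing activator of metallothioneins Mtf1 did not (log2 0.64, edgeR adjusted p = 0.0575).

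The single-cell libraries held 161890665 unique molecular identifiers (UMIs) from liver tumors and 82083967 from primary tumors. Of barcodes with at least 1500 UMIs (12505 in liver and 7490 in primary), 4887 and 5208 were over the limit of 10% mitochondrial UMIs and 109 and 28 were removed as doublets, which with a minimum of 200 genes left 7509 liver and 2249 primary cells with median depths of 6757 and 12012 UMIs. The libraries shared 7 cell barcodes. Classes were rebuilt from clusters and markers: monocyte or macrophage-like cells numbered 2675 in liver and 679 in primary, neutrophil-like cells 519 and 222, T-like cells 158 and 119, dendritic-like cells 130 and 65, and a Kupffer or resident macrophage-like cluster 268 and 69. Despite the CD45+ sort, 3493 liver and 314 primary cells were epithelial tumor cell-like, and 15 liver and 0 primary cells were hepatocyte-like. A cluster led by acinar enzyme genes (Ctrb1, Cela2a, Prss2), with 22 liver and 738 primary cells that also carry macrophage markers, stayed unnamed. The Kupffer or resident macrophage-like cluster had Cd5l at 221 CPM in liver and 44.7 CPM in primary cells and the defining Kupffer marker Clec4f at 22.5 CPM in liver cells, against 0 UMIs in primary cells, which allows up to 3.05 CPM. Its other leading genes, Ltc4s, Saa3, Thbs1, Vcan and Lyve1, are not Kupffer-specific.

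With 1 library per site there is no test between the sites: values are sums of UMIs per class as CPM, intervals are exact Poisson intervals that cover counting error only, and differences are between these libraries. Beside each class stands the level in barcodes around a peak of UMI counts below the minimum for cells, called here the empty-droplet peak. It was chosen as the background in each library after the data were seen. It spans 501 to 891 UMIs in the liver library (62069 barcodes) and 178 to 316 UMIs in the primary library (32188 barcodes). Barcodes of 1 to 50 UMIs were more numerous, at 1740599 in liver and 1387645 in primary. That the peak barcodes hold no cell was not tested, and their RNA is called free RNA below on that assumption. A class level at or below that of the peak was not read as expression. That limit is strict, since hepatocyte markers put the free RNA carried by liver cells at 15.02% of the empty-droplet level in monocyte or macrophage-like cells and 45.03% in neutrophil-like cells. This free RNA held hepatocyte markers at 374 CPM in the liver library and 10.9 CPM in the primary library.

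In the leukocyte classes of the liver library Hpx and Hamp did not exceed the empty-droplet level. Hpx was at 31.2 CPM in empty droplets of the liver library, against 1.17 CPM in those of the primary library. In liver cells it was at 5.0 CPM in monocyte or macrophage-like cells, 5.1 CPM in the Kupffer or resident macrophage-like cluster and 23.2 CPM in neutrophil-like cells, all below that level. The neutrophil-like value rests on 27 UMIs (interval 15.3 to 33.7 CPM). It was above the 14.0 CPM that a free RNA share of 45.03% would carry, and the cause of this was not tested. Hamp was at 12.2 CPM in empty droplets and at 1.5 CPM in monocyte or macrophage-like cells of the liver library. Among the classes the 15 hepatocyte-like cells alone exceeded it, with 57 Hamp UMIs (848 CPM, interval 642 to 1099) and 28 Hpx UMIs (417 CPM, interval 277 to 602). These cells also held 155 Alb UMIs and, at 1697 CPM, the macrophage marker C1qa, so their Hmox1 (77 UMIs, 1146 CPM) and Fth1 (9986 CPM) cannot be told apart from macrophage RNA in the same droplets. The part of macrophage RNA in their Trf (128 UMIs, 1905 CPM) and Cp was not tested.

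In the macrophage classes of the liver library the ratio to albumin lay near that of empty droplets for Hpx and Hamp but not for Trf. In neutrophil-like cells the Hpx ratio lay above that of empty droplets. Per 100 Alb UMIs, Hpx stood at 53.9 in monocyte or macrophage-like cells, 53.3 in the Kupffer or resident macrophage-like cluster and 73.2 in epithelial tumor cell-like cells, beside 62.6 in empty droplets, and in neutrophil-like cells at 142 on 19 Alb UMIs. Hamp stood at 16.3 in monocyte or macrophage-like cells and 22.2 in epithelial tumor cell-like cells, beside 24.6 in empty droplets, and the Kupffer or resident macrophage-like cluster held 9 Hamp UMIs to 30 Alb UMIs. The hepatocyte-like cells differed from empty droplets, with Hpx lower at 18.1 and Hamp higher at 36.8 per 100 Alb UMIs. The cause of this was not tested. Trf stood at 5406 per 100 Alb UMIs in monocyte or macrophage-like cells and 4357 in the Kupffer or resident macrophage-like cluster, beside 245 in empty droplets and 82.6 in the hepatocyte-like cells. Trf message in macrophages was thus far above the share that hepatocyte RNA carries with it.

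**Figure D2:**
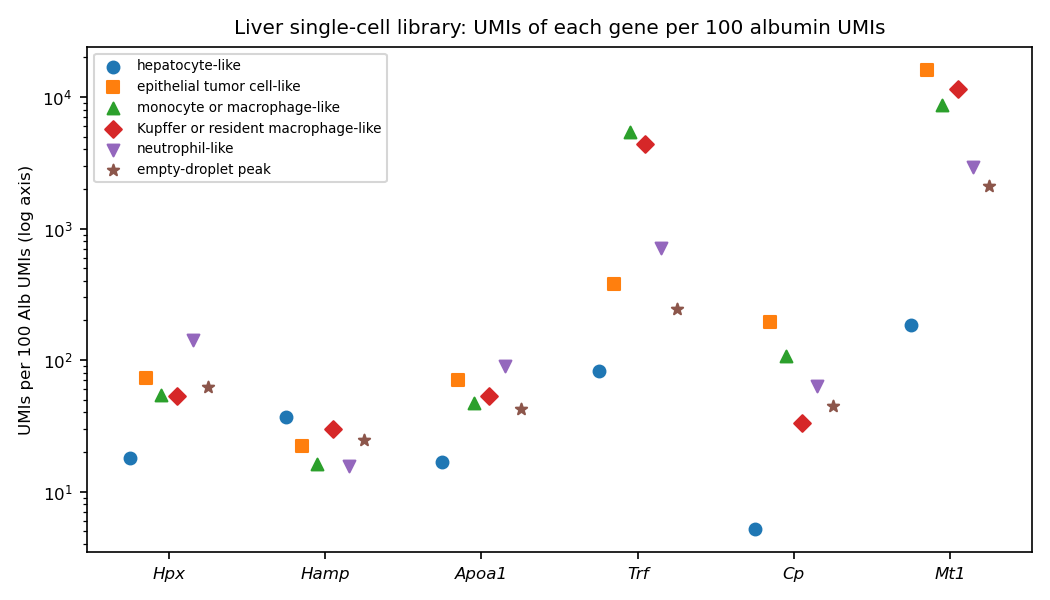
UMIs of Hpx, Hamp, Apoa1, Trf, Cp and Mt1 per 100 albumin UMIs on a log axis, 1 point per class of the liver library and 1 for the empty-droplet peak. Hpx in both macrophage classes, at 53.9 and 53.3, lies near the empty-droplet ratio of 62.6, while Trf in these classes, at 5406 and 4357, lies far above that of 245.

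Transferrin in macrophages was seen at both sites. Monocyte or macrophage-like cells held 506 CPM in liver (16541 UMIs, interval 498 to 514) and 668 CPM in primary (7634 UMIs, interval 653 to 683), beside empty-droplet levels of 122 CPM in liver and 285 CPM in primary. The Kupffer or resident macrophage-like cluster held 421 CPM in liver and 811 CPM in primary. Epithelial tumor cell-like cells held 26.5 CPM in liver and 31.8 CPM in primary, below the empty-droplet level of each library. These sums mix clusters that the sites filled unequally. Within macrophage-marked clusters Trf was lower in liver cells of cluster 12 (310 CPM in liver and 682 CPM in primary) and cluster 9 (582 and 803 CPM), and slightly higher in cluster 10 (418 and 360 CPM) and cluster 15 (464 and 451 CPM). Over the 14 clusters held by both libraries Trf was higher in liver cells in 6 and lower in 8, with 0 and 7 beyond counting error. These counts include clusters with levels under that of empty droplets, such as the T-like cells.

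Ceruloplasmin was low in leukocytes of the liver library, at 10.0 CPM in monocyte or macrophage-like cells and 3.2 CPM in the Kupffer or resident macrophage-like cluster, under the 22.4 CPM of empty droplets. In the primary library it was above the empty-droplet level of 17.2 CPM in several classes. It reached 25.04 CPM in monocyte or macrophage-like cells, 48.9 CPM in epithelial tumor cell-like cells and 68.0 CPM in the Kupffer or resident macrophage-like cluster. The highest level was in 19 fibroblast-like cells of the primary library, at 415 CPM (300 UMIs, interval 370 to 465), against 24.7 CPM (3 UMIs) in 16 such liver cells. The hepatocyte-like cells held 8 Cp UMIs (119 CPM).

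**Figure D3:**
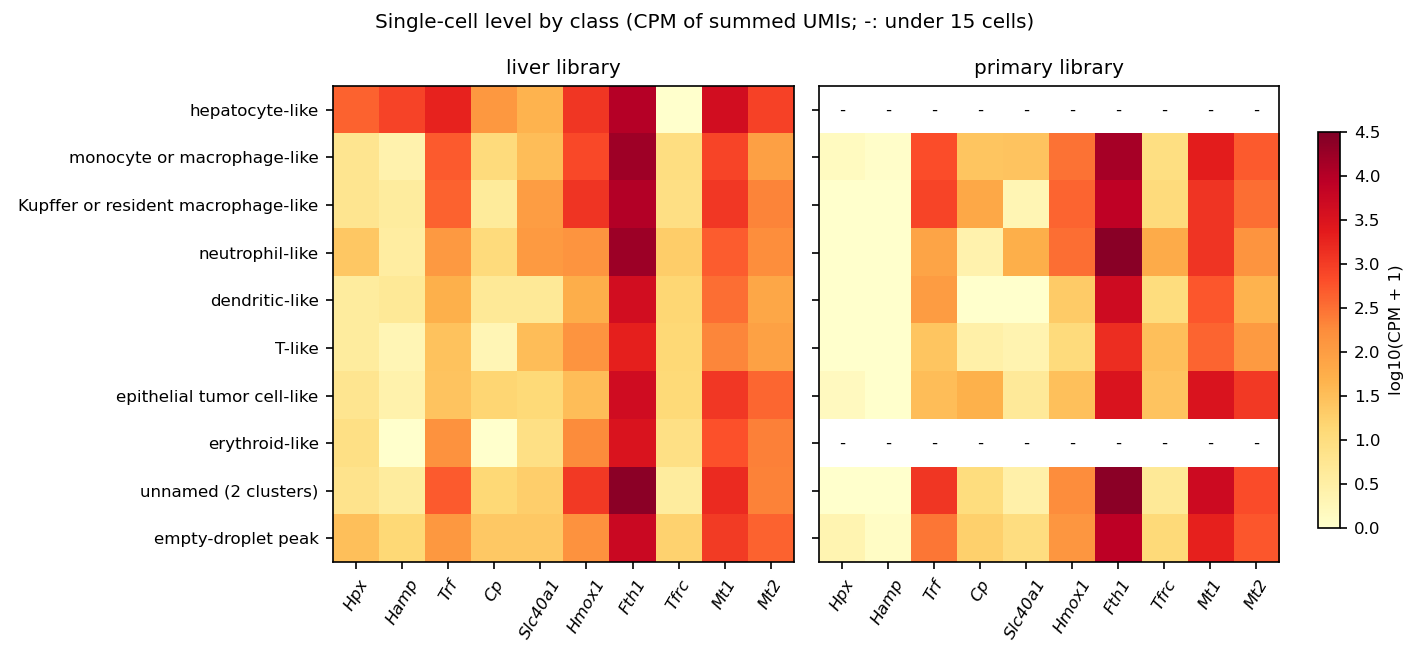
Level of the 10 genes as log10(CPM + 1), shown by color, by cell class in the liver library (left) and the primary library (right), with the empty-droplet peak of each library as the last line and a dash for classes under 15 cells. Hmox1 and Trf stand above the empty-droplet level in macrophage classes of both libraries, Fth1 does so in the monocyte or macrophage-like class and in neutrophil-like cells, and Hamp exceeds it in the hepatocyte-like cells of the liver library.

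Heme oxygenase was higher in the macrophage classes of the liver library than in those of the primary library. Monocyte or macrophage-like cells held 756 CPM of Hmox1 in liver (interval 747 to 765) and 301 CPM in primary (interval 291 to 311), a log2 ratio of 1.33. The Kupffer or resident macrophage-like cluster held 1230 CPM in liver and 405 CPM in primary. Empty droplets held 148 CPM in liver and 123 CPM in primary, and epithelial tumor cell-like cells were below that at 31.9 CPM in liver and 29.4 CPM in primary. Neutrophil-like cells ran the other way, with 138 CPM in liver (interval 118 to 161), which is not above the empty-droplet level, and 328 CPM in primary (interval 286 to 375). At the primary site the neutrophil-like interval includes the monocyte or macrophage-like level. The 19 fibroblast-like cells of that library held 217 CPM (interval 185 to 254), under the macrophage level and above that of empty droplets. The ratio in macrophages stayed positive in the 7 alternative settings run and ranged from 1.31 to 2.09.

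The share of cells with Hmox1 gave the same order after every cell was thinned to 1000 UMIs. It was 31.0% of monocyte or macrophage-like cells in liver (Clopper-Pearson interval 29.3% to 32.8%) and 19.7% in primary (16.8% to 22.9%). Without thinning it was 79.3% in liver and 75.8% in primary, at median depths of 11181 and 16372 UMIs. In epithelial tumor cell-like cells, whose summed level was under that of empty droplets, the thinned share was 4.84% in liver and 2.87% in primary, and the unthinned share was 16.6% and 16.9% at median depths of 3729 and 4793.5 UMIs.

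The macrophage class is made of clusters that the sites filled unequally: clusters 9, 10 and 8 held most of it in liver, and clusters 12 and 16 in primary. Within clusters, Hmox1 was at 977 CPM in liver and 583 CPM in primary cells of cluster 9 (led by Gpnmb and Fabp5), 183 and 78.4 CPM in cluster 10 (Cx3cr1 and class II genes), and 919 and 77.0 CPM in cluster 15 (cell cycle genes). It was highest in cluster 16 (Nos2 and Arg1), at 2336 CPM in liver and 721 CPM in primary cells. Cluster 12 (Cxcl9 and Cxcl10) was the reverse, with 99.7 CPM in liver and 171 CPM in primary cells. The liver level of cluster 12 was under the liver empty-droplet level of 148 CPM. The primary levels of clusters 10 and 15 were under the primary empty-droplet level of 123 CPM. Levels under those were not read as expression. Over the 14 clusters with at least 20 cells from both libraries, Hmox1 was higher in liver cells in 10 and lower in 4, of which 9 and 2 were beyond counting error. These counts include clusters with levels under that of empty droplets.

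**Figure D4:**
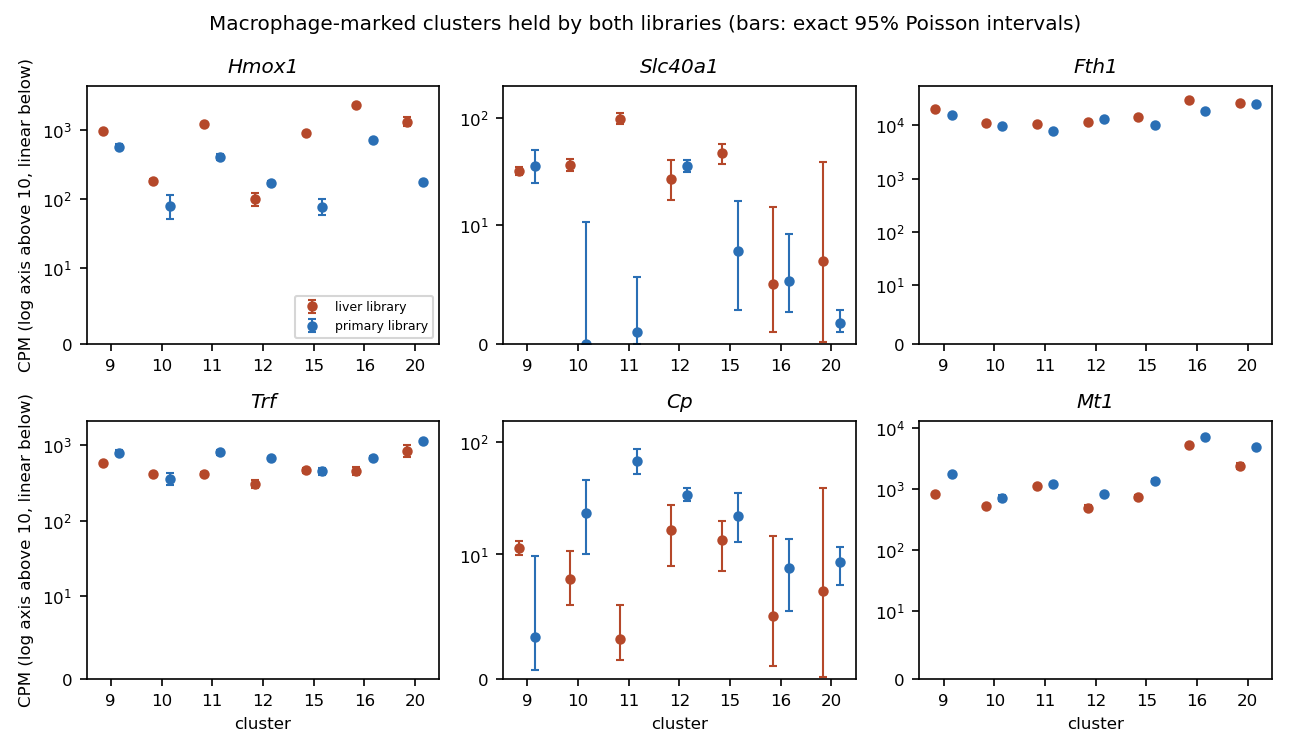
CPM of Hmox1, Slc40a1, Fth1, Trf, Cp and Mt1 in the 7 macrophage-marked clusters held by both libraries, with the liver library left of the primary library, bars for exact 95% Poisson intervals, and an axis that is linear below 10 and logarithmic above. Hmox1 is higher in liver cells of clusters 9, 10, 11, 15, 16 and 20 and lower in those of cluster 12, and Slc40a1 differs most in cluster 11, at 99.4 CPM in liver and 1.0 CPM in primary cells. Hmox1 is under the empty-droplet level in liver cells of cluster 12 and in primary cells of clusters 10 and 15.

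Ferroportin differed between the libraries in the Kupffer or resident macrophage-like cluster. In that cluster Slc40a1 had 309 UMIs in 268 liver cells (99.4 CPM, interval 88.7 to 111) and 1 UMI in 69 primary cells (1.0 CPM, interval 0.026 to 5.7). A minority of the liver cells carried it, 45 of 268 (16.8%), and Cd5l was seen in 61, Vsig4 in 20 and Clec4f in 13 of the 268. Empty droplets held 21.97 CPM in liver and 8.80 CPM in primary. In monocyte or macrophage-like cells it was at 31.8 CPM in liver, or 28.5 CPM with the free RNA share subtracted, and at 26.1 CPM in primary, and this ratio of log2 0.28 had no fixed direction over the alternatives run, from -0.44 to 1.43. Neutrophil-like cells held 109 CPM in liver and 53.6 CPM in primary, on 127 and 35 UMIs. T-like cells held 32.05 CPM in liver and 1.3 CPM in primary, on 34 and 2 UMIs. These UMIs lay in 5 of 158 liver and 1 of 119 primary cells. Monocyte and macrophage markers summed to 3320 CPM in liver and 1502 CPM in primary T-like cells, so macrophage RNA in the same droplets cannot be told apart.

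Ferritin heavy chain was abundant in several classes. Fth1 stood at 16842 CPM in liver and 25005 CPM in primary neutrophil-like cells and at 16512 CPM in liver and 13946 CPM in primary monocyte or macrophage-like cells. The Kupffer or resident macrophage-like cluster held 10585 CPM in liver and 7886 CPM in primary, the primary value being under the empty-droplet level. In the small fibroblast-like class it was at 8383 CPM in 16 liver cells and 16046 CPM in 19 primary cells, and the unnamed clusters held 24147 CPM in liver and 24780 CPM in primary. T-like cells (2081 CPM in liver and 1439 CPM in primary) and epithelial tumor cell-like cells (4675 CPM in liver and 3172 CPM in primary) lay under the empty-droplet levels of 5614 CPM in liver and 8376 CPM in primary. Ferritin light chain showed a wider gap between the libraries than the heavy chain in macrophages: Ftl1 was at 15641 CPM in liver and 6011 CPM in primary monocyte or macrophage-like cells, and at 11616 and 5017 CPM in the Kupffer or resident macrophage-like cluster. In neutrophil-like cells Ftl1 was at 5682 CPM in liver and 5161 CPM in primary. No empty-droplet level was taken for Ftl1, so the part of free RNA in its values was not tested.

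The transferrin receptor was a low gene in these cells, under the empty-droplet level of 15.98 CPM in monocyte or macrophage-like cells of liver (8.4 CPM) and under 10.9 CPM in those of primary (8.1 CPM). Above the empty-droplet level in the primary library were neutrophil-like cells at 59.8 CPM (39 UMIs), T-like cells at 30.6 CPM and epithelial tumor cell-like cells at 26.5 CPM. The same classes held 18.9, 12.3 and 11.6 CPM in liver. Of these, neutrophil-like cells alone were above the liver empty-droplet level, and their interval of 11.8 to 28.6 CPM includes it.

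The level of metallothionein 1 was lower in liver cells in every cluster compared, but in several clusters it was under that of empty droplets. Mt1 was lower in liver than in primary cells in 14 of 14 clusters held by both libraries, in 12 of them beyond counting error, with a median log2 ratio of -0.78 and a range from -2.33 to -0.08. Among 5944 genes of at least 20 CPM on average, 1.16% were lower in liver in every such cluster and 4.16% were higher in every one. Mt2 was lower in 11 and higher in 3. Empty droplets differed in the same direction, with Mt1 at 1050 CPM in liver and 1956 CPM in primary and Mt2 at 423 CPM and 542 CPM, and the part of free RNA in this was not tested. Among macrophage-marked clusters, Mt1 was under these levels in both libraries in clusters 9, 10, 12 and 15. It was above them in both libraries in clusters 16 and 20. Levels under those of empty droplets were not read as expression, although the count of 14 includes them. In epithelial tumor cell-like cells, which lay above the empty-droplet level in both libraries, Mt1 was at 1119 CPM in liver and 3211 CPM in primary.

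In monocyte or macrophage-like cells Mt1 was at 815 CPM in liver, under the empty-droplet level, and at 2195 CPM in primary, and Mt2 at 90.0 CPM in liver and 507 CPM in primary. With the free RNA share of that liver class subtracted Mt1 was 657 CPM and Mt2 26.5 CPM. The highest macrophage level was again in cluster 16, at 5208 CPM of Mt1 in liver and 7201 CPM in primary cells. In T-like cells Mt1 was at 205 CPM in liver and 412 CPM in primary, below the empty-droplet level in both libraries. The bulk tumors did not show a called Mt1 difference, as given above.

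Genes whose levels were most like these over 29 cluster sums of the 2 libraries were ranked by Pearson r of log2(CPM + 1), among 5821 genes. The points share library, depth and free RNA, so r is a description only. Nearest to Hmox1 were F7 (r = 0.913), Cxcl14 (0.908), Ccl6 (0.901), Pf4 (0.901) and F13a1 (0.898). Nearest to Fth1 were Sdcbp (0.898), the ferritin light chain pseudogene Ftl1-ps1 (0.894), Ninj1 (0.891), Msrb1 (0.885) and Gabarap (0.878). Nearest to Mt1 were Zfp395 (0.908), Appl2 (0.907), Wipi1 (0.853), Mt2 (0.835) and Pim3 (0.813). For Slc40a1 the likeness was weaker, led by Amdhd2 (0.762), Ube2a (0.703) and Atp6v0a1 (0.702).

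Other iron genes named for these cells had their own pattern. Haptoglobin Hp was at 1077 CPM in liver and 659 CPM in primary neutrophil-like cells, and the siderophore binder Lcn2 at 749 CPM in liver and 1816 CPM in primary neutrophil-like cells. Biliverdin reductase Blvrb, which acts after heme oxygenase, was at 274 CPM in liver and 187 CPM in primary monocyte or macrophage-like cells. Cd163 was at 65.3 CPM in liver and 76.1 CPM in primary cells of the Kupffer or resident macrophage-like cluster. No empty-droplet level was taken for Hp, Lcn2, Blvrb or Cd163, so the part of free RNA in these values was not tested. In 95 erythroid-like liver cells, which had Hbb-bs at 276096 CPM, Alas2 was at 1302 CPM. Their Fth1, at 3169 CPM, was under the empty-droplet level of 5614 CPM. Their Hmox1, at 184 CPM, was seen in 11 of the 95 cells, and its interval of 136 to 242 CPM includes the empty-droplet level of 148 CPM.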

How the data were processed

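Bulk RNA-seq came from 3 liver and 3 primary tumors and single-cell RNA-seq from 1 CD45+ library per site; bcl2fastq, Cell Ranger and build mm10 are named per the submitters' processing notes, and the aligner and counter of the bulk reads are not given in the sources used here. The authors deposited raw read counts per gene, FPKM values per gene, and UMI counts per barcode and gene. Counts were filtered (filterByExpr), scaled (TMM) and tested with edgeR 4.0.16 in R 4.3.3 (robust quasi-likelihood, two-sided, Benjamini-Hochberg at 0.05). DESeq2 1.42.0 and limma 3.58.1 were alternatives, the latter on log2(FPKM + 1) and log2(FPKM + 0.1). The test was checked on simulated data. Cells needed at least 1500 UMIs, 200 genes and at most 10% mitochondrial UMIs; doublets were marked by Scrublet at a fixed score of 0.25, since its automatic threshold marked 1 liver cell. Clusters (scanpy, Leiden, 2000 variable genes without the followed genes, pathway lists and hepatocyte markers) were named from fixed markers. Barcodes of 10 to 100 UMIs were the planned background; they held hepatocyte markers at 1312 CPM in liver and 1517 CPM in primary, unlike the cells, so the empty-droplet peak was used instead. The stem-pair search was also added later. Followed genes, lists and markers were chosen with earlier results of these data known. Named genes are the 10, list genes called in bulk (up to 5 per list and direction by p-value), list genes over 20 CPM in a class, fixed markers, and the 5 genes most alike; genes not called (Ftl1 and Mtf1 in bulk) and leading genes of clusters were named after their values were seen.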

Additional observations from a re-analysis of the deposited data

Results flagged for a closer look

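Barcodes over the mitochondrial limit, 4887 in the liver library and 5208 in the primary library with median mitochondrial shares of 30.1% and 85.2%, were left out of every class. In the liver library they held hepatocyte RNA above the level in the same kind of primary barcodes: Hamp was at 4.20 CPM in liver (150 UMIs) and 0.0544 CPM in primary (1 UMI), Hpx at 24.2 CPM in liver and 0.272 CPM in primary, and Alb at 30.6 CPM in liver and 0.163 CPM in primary. All 3 liver levels are below those of the empty-droplet peak of that library, at 12.2 CPM for Hamp, 31.2 CPM for Hpx and 49.8 CPM for Alb.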

How the results depend on the processing

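The 5 genes called higher in bulk stayed higher in sign in all 15 alternatives; 4 to 6 were called when 1 library was left out, and 0 to 1 were called lower. Whether replicate numbers pair the samples is not given. Correlations of deviations were -0.174, 0.240 and 0.0896 for equal numbers and -0.364 to 0.200 for unequal ones, and so few samples cannot decide it. With the replicate block 5 were called higher, 0 lower, and over all genes 2703 higher and 873 lower. Leaving out 1 library gave 1810 to 3346 genes higher and 134 to 1468 lower over all genes, with the lowest both times without liver tumor 2, and 21 to 40 pathway genes higher and 0 to 3 lower. Pathway genes called lower were 3 with no filter, 2 with DESeq2 and 0 with either FPKM fit. Hmox1 turned to 0.11 with the replicate block, 0.10 with limma-voom, 0.11 and 0.12 on the FPKM scales with pseudocounts of 1 and 0.1, and 0.67 without primary tumor 2 (range without 1 library -0.41 to 0.67). Fth1 turned to -0.0065 with no filter, and to -0.17, -0.13 and -0.12 without liver tumor 1, primary tumor 1 and primary tumor 3 (range -0.17 to 0.36). Mt1 and Mt2 turned to 0.56 and 0.83 without primary tumor 2 (ranges -1.18 to 0.56 and -1.17 to 0.83). The cause of these changes was not tested. In macrophage-like cells the Hmox1 log2 ratio of 1.33 was 1.39 at 3000 UMIs, 1.84 at 1000 UMIs, 1.55 at a 5% mitochondrial limit, 2.09 with libraries clustered apart, 1.73 with a marker gate per cell and 1.64 with the unnamed macrophage-marked clusters included (added after seeing the data). The Slc40a1 ratio of 0.28 was -0.00099, 0.87, -0.44, 1.43 and 1.08 under the same settings from 1000 UMIs on. Depth limits Hamp in primary bulk tumors, with 0 to 5 reads, and Slc40a1, Cp and Tfrc per class, with few UMIs in the smaller classes.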

Other observations

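The lowest barcodes of both libraries, at 10 to 100 UMIs (21816 in liver and 18590 in primary), had alike levels of hepatocyte genes although the cells and empty-droplet peaks did not. Hpx was at 85.5 CPM in liver and 90.0 CPM in primary, Alb at 415 CPM in liver and 545 CPM in primary, and Hamp at 16.7 CPM (8 UMIs) in liver and 7.94 CPM (3 UMIs) in primary. In the primary library Alb was at 0.259 CPM in the empty-droplet peak and at 0 UMIs in monocyte or macrophage-like cells, which allows up to 0.263 CPM.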
